A study of Drosophila melanogaster with 12 samples.

Results

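The loss of *ERR* was examined in adult females of the *ERR[cond.19-4]* stock, by comparing 3 RNA-seq libraries of heat-shocked knockouts with 3 libraries of unheated sibling controls, out of 12 libraries in the series. The heat-shocked knockouts and their no hs controls had the genotype hsflp/+; +/+; FRT-ERR-FRT/ERR2. The hsflp transgene makes the FLP recombinase under a heat shock promoter, and the recombinase removes most of the FRT-flanked *ERR* coding region. The other chromosome carried *ERR2*, a deletion of the whole *ERR* coding region that also reaches parts of *Atg18a* and *CG7979*, so knockouts and controls shared it. Knockouts were 0 to 2 d old when first kept at 37 °C, a treatment repeated 24 h later, and whole females were collected 7 d after the heat shock, with 10 females pooled in each library. The other 6 libraries came from *ERR[cond.2]* females, in which the FRT-flanked copy is an *ERR::GFP* transgene, and they serve below only as a comparison. In these females the transgene was combined with the mutant alleles *ERR1* and *ERR2*, so that heat shock left an *ERR1/ERR2* mutant.

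ERR is the *Drosophila* estrogen-related receptor, an orphan nuclear receptor that binds DNA in the control regions of metabolic genes. It is known for switching on glycolysis and related carbohydrate pathways in embryos and larvae, and its mammalian relatives regulate genes of energy metabolism. Glycolysis splits glucose into pyruvate, the pentose phosphate pathway (PPP) draws on the same sugar to make NADPH and ribose, and glycogen is the stored form of glucose. Controls were left unheated, so effects of heat and of *ERR* loss cannot be told apart. The count table numbers the stocks instead of naming them, and its number 1 was read as *ERR[cond.19-4]*, an assumption that no label or method text states.

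The 3 knockout libraries held 19234422 to 19745334 counts, and the 3 control libraries 19399232 to 20604204. Along the first principal component of the 500 most variable genes, which held 39.8% of their variance, knockouts lay between −14.5 and −7.06 and controls between 3.99 and 14.8. Knockout 3 stood apart from the other 2 knockouts on the second component, at −11.6 against 6.85 and 8.76 (19.0% of the variance). The vitelline membrane genes of the ovary's follicle cells took 1.53% to 1.64% of the counts in knockouts and 1.43% to 1.86% in controls, and the chorion (eggshell) genes 2.43% to 2.52% in knockouts and 2.34% to 2.92% in controls. Of 51 genes for male accessory gland and seminal fluid proteins, 15 had a count, and together they took 0.00783% to 0.00801% of knockout counts and 0.00720% to 0.00820% of control counts. Levels are given below in CPM, counts brought to a common library size with edgeR's TMM factors for these 6 libraries, in the order of replicates 1, 2 and 3. Changes are log2 of knockout over control, so a negative value means lower in knockouts. A gene is said to have fallen or risen when its adjusted p in edgeR's quasi-likelihood test was under 0.05.

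*ERR* (FBgn0035849, chromosome 3L, 8183361 to 8186671, minus strand) had 4.18, 3.404 and 3.99 CPM in knockouts, against 8.11, 6.64 and 5.85 CPM in controls. All 3 knockouts lay below all 3 controls, and about 56.1% of the control level was still counted (log2 fold change −0.83 with an SE of 0.18, adjusted p = 0.0228, edgeR). The call was lost without control 1, control 2, knockout 1 or knockout 2, where the adjusted p reached 0.127 in edgeR. Its neighbor *mthl7* (8178675 to 8180514), which encodes a receptor of the methuselah family, had 15.95, 16.5 and 16.3 CPM in knockouts and 0.891, 1.57 and 0.266 CPM in controls (log2 fold change 4.14 with an SE of 0.30, adjusted p = 4.26e-06, edgeR). The knockout libraries were nearly equal, all controls were under 2 CPM, and the call held without any single library, with a log2 fold change of 4.76 for *mthl7* without control 2. *CG7979* (8180923 to 8183369) lies between them and overlaps the end of *ERR* by a few bases only, from 8183361 to 8183369. It had 10.4, 13.5 and 11.5 CPM in knockouts and 21.5, 18.3 and 15.5 CPM in controls (log2 fold change −0.65 with an SE of 0.14, adjusted p = 0.0207, edgeR), and its call was lost without control 1, control 2, knockout 1 or knockout 3 (adjusted p up to 0.0972, edgeR). The sources used here do not say whether the counting used strand, so reads in the overlap could be assigned to either gene. *Atg18a*, an autophagy gene on the other side, had 59.4, 57.3 and 58.4 CPM in knockouts and 65.5, 57.5 and 60.1 CPM in controls, and the groups overlapped (adjusted p = 0.665, edgeR). In the 100 kb on each side of *ERR* there were 42 genes, of which 28 could be tested and 3 were called. The other 25 had log2 fold changes between −0.43 and 0.29, with no adjusted p below 0.104 in edgeR.

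**Figure D1:**
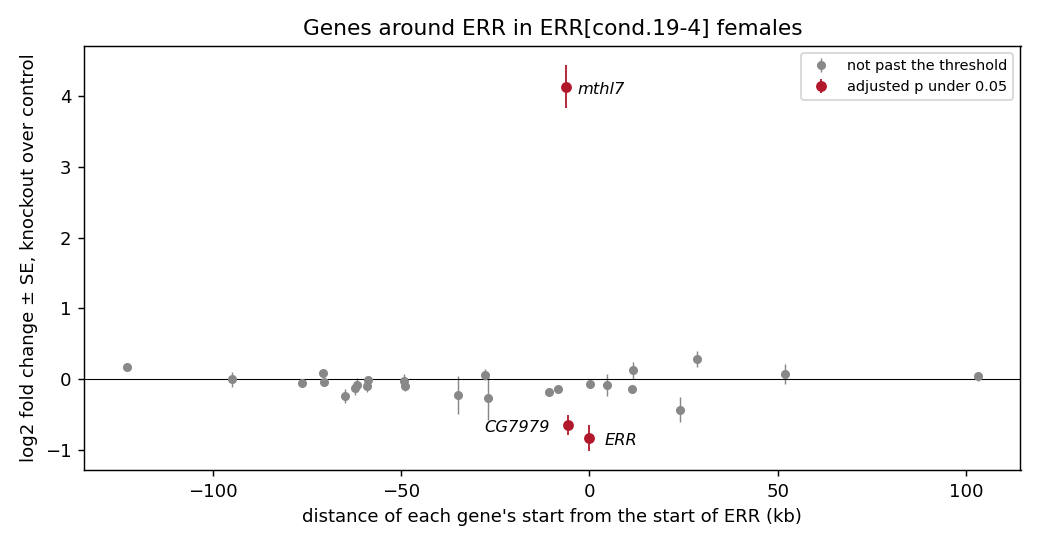
Log2 fold change (knockout over control, bars show SE) of the 28 tested genes in the 100 kb on each side of *ERR*, against the distance of each gene's start from the start of *ERR* in kb; a gene that reaches into the window can start outside it. *mthl7* stands at 4.14, *ERR* at −0.83 and *CG7979* at −0.65, and the other 25 genes lie between −0.43 and 0.29.

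Of 9717 genes tested, 101 were lower in knockouts (1.04%) and 259 were higher (2.67%), or 360 in all (3.7%). The counts of called list members given below are to be read beside the shares of 1.04% and 2.67%. The 3 knockouts lay on one side of all 3 controls for 358 of the called genes and for 20.3% of all genes tested (9.39% below and 10.9% above). Lower calls were most frequent among abundant genes. Among genes over 100 CPM in controls, 51 of 1676 were lower (3.04%) and 34 were higher (2.03%), whereas among genes at 1 to 10 CPM, 2 of 2159 were lower and 47 were higher. The control level is itself part of the comparison, and a gene rare in controls has little room to be called lower. Nothing is therefore read from this contrast. Most changes were modest, since 44 of the 101 lower and 145 of the 259 higher genes changed by under 1.5-fold, and 24 lower and 43 higher genes changed by at least 2-fold. Calls held without any single library for 68 lower and 124 higher genes. The count of higher genes was 162 without knockout 1 and 147 without knockout 2, and a fit of all 12 libraries, with their spread shared, gave 53 lower and 41 higher genes.

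**Figure D2:**
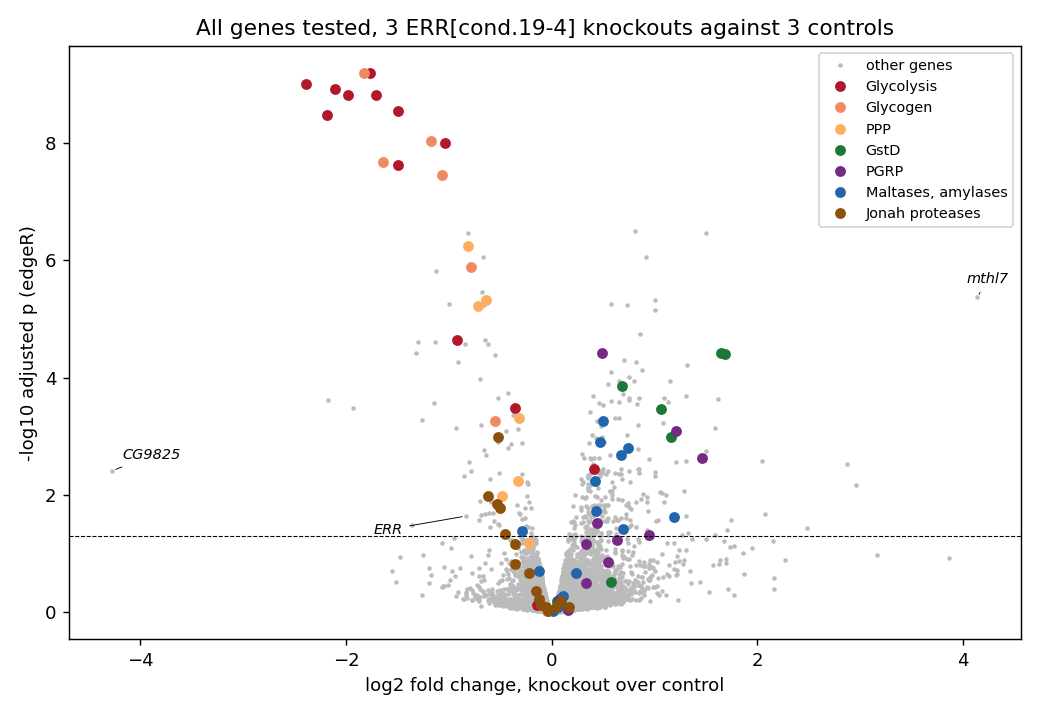
Log2 fold change (knockout over control) against −log10 of the adjusted p of edgeR for the 9717 genes tested, with 7 gene lists in color and the threshold of 0.05 as a dashed line. Genes of glycolysis and glycogen metabolism hold the lowest p-values among lower genes, and GstD, PGRP and maltase genes lie on the higher side.

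Glycolysis had the lowest median of the 61 gene lists examined. Of its 17 listed genes 13 could be tested, 11 fell and 1 rose, with a median log2 fold change of −1.497, beside a median of −0.00342 over all genes tested. All 11 lower calls held without any single library. The listed genes together took 0.232%, 0.250% and 0.219% of the counts in knockouts 1, 2 and 3, and 0.744%, 0.713% and 0.717% in the controls, a ratio of 0.322 (exact permutation test, two-sided, p = 0.1, the smallest that 3 against 3 allow). In whole females fewer cells of a type and less RNA per cell cannot be told apart.

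The decrease was shallow at the entry to the pathway and deep in the middle. *Hex-A*, a hexokinase that phosphorylates glucose, had 114, 109 and 114 CPM in knockouts and 146, 139.6 and 144 CPM in controls (log2 fold change −0.35, adjusted p = 0.000332, edgeR). *Pgi*, which turns glucose-6-phosphate into fructose-6-phosphate, had 90.5, 100.4 and 88.4 CPM in knockouts and 317, 293 and 299.5 CPM in controls (log2 fold change −1.704 with an SE of 0.06, adjusted p = 1.49e-09, edgeR). *Pfk*, phosphofructokinase, the committed step of glycolysis, had 35.2, 40.6 and 32.2 CPM in knockouts and 161, 154 and 176 CPM in controls (log2 fold change −2.19 with an SE of 0.08, adjusted p = 3.32e-09, edgeR). Knockout levels of *Pfk* were 21.98% of the control mean, and the groups were far apart. *Ald* encodes aldolase, which splits fructose-1,6-bisphosphate, and it had 319, 323 and 252 CPM in knockouts and 582, 533 and 573 CPM in controls (log2 fold change −0.92, adjusted p = 2.27e-05, edgeR). *Tpi*, triose phosphate isomerase, had 155, 177 and 144 CPM in knockouts and 679.97, 670.4 and 694 CPM in controls (log2 fold change −2.10 with an SE of 0.07, adjusted p = 1.18e-09, edgeR). Aldolase was thus the shallower of these neighboring steps, at 52.95% of the control mean, against 23.3% for *Tpi*.

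The paralogs for glyceraldehyde-3-phosphate dehydrogenase both fell. *Gapdh2* had 351, 396 and 317 CPM in knockouts and 1817, 1840.3 and 1922 CPM in controls (log2 fold change −2.39 with an SE of 0.07, adjusted p = 9.90e-10, edgeR). *Gapdh1* had 324, 346 and 313 CPM in knockouts and 901, 891 and 969 CPM in controls (log2 fold change −1.49 with an SE of 0.05, adjusted p = 2.81e-09, edgeR). Per gene length, *Gapdh2* was the more abundant in controls, at 1289 FPKM against 622 FPKM for *Gapdh1*, while in knockouts their levels were 246 and 221 FPKM. Reads from stretches that the paralogs share could have been assigned to either. *Pgk*, phosphoglycerate kinase, had 127, 153 and 130.1 CPM in knockouts and 375, 378 and 404 CPM in controls (log2 fold change −1.497 with an SE of 0.07, adjusted p = 2.33e-08, edgeR). *Pglym78*, phosphoglycerate mutase, had 96.9, 116 and 97.7 CPM in knockouts and 414, 399 and 416 CPM in controls (log2 fold change −1.98 with an SE of 0.07, adjusted p = 1.49e-09, edgeR). The last steps differed in depth. *Eno*, enolase, had 294, 309 and 277 CPM in knockouts and 987, 997 and 1007 CPM in controls (log2 fold change −1.76 with an SE of 0.05, adjusted p = 6.32e-10, edgeR), and *PyK*, pyruvate kinase, which makes pyruvate, had 358, 369.9 and 354 CPM in knockouts and 745, 728 and 740.2 CPM in controls (log2 fold change −1.03, adjusted p = 1.01e-08, edgeR).

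The 2 other tested genes of the list did not fall. *Hex-C*, another hexokinase, rose, with 49.7, 47.6 and 44.1 CPM in knockouts and 34.8, 36.3 and 35.4 CPM in controls (log2 fold change 0.41 with an SE of 0.07, adjusted p = 0.00356, edgeR). *ImpL3*, lactate dehydrogenase, which recycles pyruvate to lactate, had 31.4, 26.2 and 18.002 CPM in knockouts and 31.9, 24.6 and 26.6 CPM in controls, and the groups overlapped (log2 fold change −0.14, adjusted p = 0.754, edgeR).

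**Figure D3:**
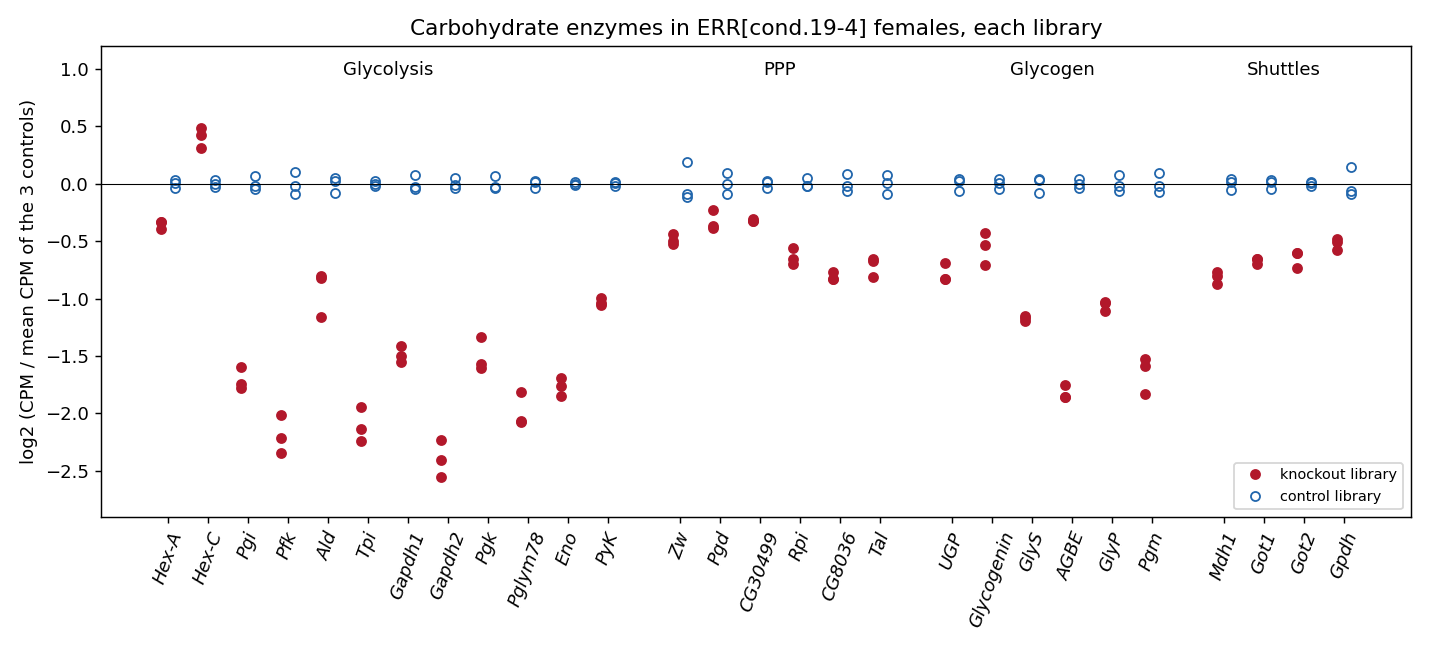
Log2 of each library's CPM over the mean CPM of the 3 controls, for the called genes of glycolysis, the pentose phosphate pathway (PPP), glycogen metabolism and NADH shuttles, with filled red points for the 3 knockout libraries and open blue points for the 3 control libraries. Knockout points lie below all control points for each gene shown except *Hex-C*, which lies above them. Only called genes are shown, and nearly all called genes separate in this way.

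Of the 7 tested genes of the PPP 6 fell, with a median log2 fold change of −0.49. The largest decrease was in *CG8036*, a transketolase gene of the non-oxidative branch, which had 298, 311 and 298 CPM in knockouts and 507, 523 and 562 CPM in controls (log2 fold change −0.81 with an SE of 0.05, adjusted p = 5.55e-07, edgeR). *Tal*, transaldolase, had 133, 134 and 121 CPM in knockouts and 213, 199 and 223 CPM in controls (log2 fold change −0.71 with an SE of 0.05, adjusted p = 5.88e-06, edgeR). *Rpi*, ribose-5-phosphate isomerase, had 101, 111 and 104 CPM in knockouts and 162, 169.6 and 161 CPM in controls (log2 fold change −0.64 with an SE of 0.05, adjusted p = 4.77e-06, edgeR). These 3 calls held without any single library. In the oxidative branch, which makes NADPH, *Pgd* had 105, 116 and 106 CPM in knockouts and 128, 136 and 146 CPM in controls (log2 fold change −0.33, adjusted p = 0.00581, edgeR). *Zw*, glucose-6-phosphate dehydrogenase, had 25.2, 24.1 and 23.7 CPM in knockouts and 31.98, 31.5 and 38.8 CPM in controls, a call that was lost without knockout 2 (log2 fold change −0.49, adjusted p = 0.0105, and 0.0524 without that library, edgeR). *CG30499*, ribulose-5-phosphate epimerase, stood at 138, 138 and 139.8 CPM in knockouts and 175, 176 and 168 CPM in controls (log2 fold change −0.32, adjusted p = 0.000490, edgeR).

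Glycogen genes fell on both the building and the breaking side. Of 7 listed genes, all tested, 6 fell, with a median log2 fold change of −1.06, and all 6 calls held without any single library. *AGBE*, the branching enzyme, had 47.7 ± 1.95 CPM in knockouts and 169 ± 4.64 CPM in controls (mean ± SD, n = 3 each; log2 fold change −1.82 with an SE of 0.05, adjusted p = 6.32e-10, edgeR). *GlyS*, glycogen synthase, had 88.3, 85.8 and 87.1 CPM in knockouts and 201, 186 and 202 CPM in controls (log2 fold change −1.17 with an SE of 0.05, adjusted p = 9.05e-09, edgeR). For *GlyP*, glycogen phosphorylase, which releases glucose-1-phosphate, the levels were 207, 209 and 197 CPM in knockouts and 421, 407 and 450.4 CPM in controls (log2 fold change −1.06 with an SE of 0.05, adjusted p = 3.54e-08, edgeR). *Pgm*, phosphoglucomutase, which links glycogen to glycolysis, had 79.9, 83.2 and 67.7 CPM in knockouts and 237, 228 and 256 CPM in controls (log2 fold change −1.64 with an SE of 0.07, adjusted p = 2.12e-08, edgeR). The knockout mean of these 4 genes was between 28.3% and 47.9% of the control mean. *UGP*, which makes UDP-glucose, changed by −0.78 (log2, adjusted p = 1.31e-06, edgeR) and *Glycogenin*, the primer, by −0.55 (adjusted p = 0.000554, edgeR). *CG9485*, the debranching enzyme, had 3.56, 3.71 and 4.67 CPM in knockouts and 4.45, 3.499 and 4.31 CPM in controls, and the groups overlapped. *PhKgamma*, the catalytic subunit of phosphorylase kinase, which is outside the list, also fell, with 46.9, 49.5 and 48.4 CPM in knockouts and 74.6, 70.9 and 76.7 CPM in controls (log2 fold change −0.62 with an SE of 0.06, adjusted p = 2.61e-05, edgeR).

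Trehalose is the main sugar of fly haemolymph. None of 7 tested genes of its metabolism and transport passed in edgeR or DESeq2 (2 at an unadjusted p under 0.05, both higher), and all 7 had positive log2 fold changes, from 0.07 to 0.24, with *Tps1*, the synthase, at 0.18 (adjusted p = 0.282, edgeR) and *Treh*, trehalase, at 0.16 (adjusted p = 0.0885, edgeR). None of 11 tested sugar transporters passed either (median −0.04, 1 at an unadjusted p under 0.05, 0 by DESeq2).

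Enzymes that convert other sugars and polyols fell in part, 4 of 13 tested with a median of −0.11, where 1.04% of all genes tested fell. *Sodh-1*, a sorbitol dehydrogenase, had 29.2, 39.1 and 12.9 CPM in knockouts and 119, 109 and 138 CPM in controls (log2 fold change −2.17 with an SE of 0.25, adjusted p = 0.000238, edgeR). *CG32444* had 23.1, 30.1 and 11.8 CPM in knockouts and 87.4, 65.8 and 94.5 CPM in controls (log2 fold change −1.93 with an SE of 0.23, adjusted p = 0.000332, edgeR). In both, knockout 3 was the lowest library, at less than the level of either other knockout. *CG6084*, an aldose reductase, had 247, 257 and 237 CPM in knockouts and 415, 373 and 383 CPM in controls (log2 fold change −0.66 with an SE of 0.05, adjusted p = 5.80e-06, edgeR). *Galk*, galactokinase, changed by −0.30 (adjusted p = 0.02095, and up to 0.121 without control 2, control 3 or knockout 2, edgeR).

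Genes for the shuttles that carry NADH between cytosol and mitochondria were lower for 4 of 7 tested. *Mdh1*, cytosolic malate dehydrogenase, had 368, 376 and 351 CPM in knockouts and 651, 617 and 659.5 CPM in controls (log2 fold change −0.82 with an SE of 0.05, adjusted p = 3.35e-07, edgeR). *Got1* and *Got2* encode the aspartate aminotransferases of cytosol and mitochondria. *Got1* had 134, 135 and 130.4 CPM in knockouts and 213, 205 and 216 CPM in controls (log2 fold change −0.67, adjusted p = 8.86e-07, edgeR), and *Got2* had 292, 292 and 265 CPM in knockouts and 435, 443 and 447 CPM in controls (log2 fold change −0.64, adjusted p = 4.36e-06, edgeR). *Gpdh*, glycerol-3-phosphate dehydrogenase, had 167, 170.02 and 159 CPM in knockouts and 228, 223 and 262 CPM in controls (log2 fold change −0.52 with an SE of 0.06, adjusted p = 0.000221, edgeR). All 4 calls held without any single library.

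Few genes downstream of pyruvate were called. Of 26 tested genes for pyruvate oxidation and the TCA cycle none fell (2 at an unadjusted p under 0.05, 0 by DESeq2) and 1 rose, *Nc73EF*, the 2-oxoglutarate dehydrogenase, by 0.21 (adjusted p = 0.0154, edgeR), a call lost without control 1, control 2, knockout 1 or knockout 2 (adjusted p up to 0.107, edgeR). None of 66 tested oxidative phosphorylation genes passed in edgeR, although 65 had positive values (median 0.10), 23 were higher at an unadjusted p under 0.05 and DESeq2 called 1. None of 20 genes for fatty acid oxidation passed (median 0.05, 1 at an unadjusted p under 0.05, 0 by DESeq2). In fatty acid synthesis 1 of 12 fell, *ATPCL*, ATP citrate lyase, which makes cytosolic acetyl-CoA, with 163, 162 and 157 CPM in knockouts and 188, 191 and 210.1 CPM in controls (log2 fold change −0.29 with an SE of 0.05, adjusted p = 0.00444, edgeR). *FASN1*, a fatty acid synthase gene that the study names, was not found by name, so it is not among these 12 and its change was not read. In lipid storage and lipolysis, *mag*, a lipase gene, fell, with 75.6, 79.5 and 78.8 CPM in knockouts and 123.3, 106 and 146 CPM in controls (log2 fold change −0.68 with an SE of 0.09, adjusted p = 0.000631, edgeR), and *Rfabg*, the apolipophorin precursor, rose. The storage lipase *bmm* stood at 88.97, 85.1 and 88.8 CPM in knockouts and 83.9, 87.3 and 84.7 CPM in controls, with overlapping groups (adjusted p = 0.763, edgeR).

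Several lower genes lay outside the carbohydrate lists. *CG9825*, annotated by the authors' table with a transporter domain of the major facilitator family, had the largest decrease. It had 1, 3 and 2 counts in knockouts 1, 2 and 3, and 23, 26 and 75 counts in controls, so that controls exceeded knockouts by a factor of 20.1 (95% interval 8.96 to 55.7, counting error only; log2 fold change −4.27, SE 0.71, adjusted p = 0.00386, edgeR). Control 3 was the highest library, and without it the log2 fold change of *CG9825* was −3.46 (adjusted p = 0.00739, edgeR). *CG3699* had 22.3, 22.6 and 17.02 CPM in knockouts and 55.1, 43.97 and 53.1 CPM in controls (log2 fold change −1.30, adjusted p = 2.43e-05, edgeR). *Corp*, known as a target of p53, had 19.98, 19.5 and 20.96 CPM in knockouts and 42.1, 45.03 and 44.3 CPM in controls (log2 fold change −1.12, adjusted p = 1.53e-06, edgeR). *CG9119* had 18.8, 18.2 and 12.9 CPM in knockouts and 38.8, 43.7 and 41.9 CPM in controls (log2 fold change −1.32 with an SE of 0.12, adjusted p = 3.75e-05, edgeR). The 4 genes had no overlap between groups, which holds for all 101 lower genes called. *CG12374*, one of the most abundant genes called, had 911, 985 and 865 CPM in knockouts and 1779.9, 1672 and 2078 CPM in controls (log2 fold change −1.002 with an SE of 0.08, adjusted p = 5.43e-06, edgeR).

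Among the higher genes, glutathione S-transferases of the delta class, cytosolic enzymes that conjugate electrophiles to glutathione, were a prominent group. Of 11 listed genes 8 were tested and 5 rose, with a median log2 fold change of 0.88, and 5 were called without any single library. *GstD2* had 13.3, 13.2 and 13.1 CPM in knockouts and 3.704, 5.07 and 3.46 CPM in controls (log2 fold change 1.69 with an SE of 0.16, adjusted p = 3.89e-05, edgeR). *GstD5* had 9.78, 10.2 and 10.01 CPM in knockouts and 3.05, 3.601 and 2.93 CPM in controls (log2 fold change 1.65 with an SE of 0.15, adjusted p = 3.75e-05, edgeR). The knockouts were nearly equal in both genes. *GstD8* had 10.9, 9.86 and 10.3 CPM in knockouts and 5.49, 4.61 and 3.72 CPM in controls (log2 fold change 1.16, adjusted p = 0.00104, edgeR), and *GstD10* had 14.96, 13.5 and 12.1 CPM in knockouts and 6.66, 6.49 and 6.17 CPM in controls (1.07, adjusted p = 0.000339, edgeR). *GstD9* had 42.1, 41.8 and 44.5 CPM in knockouts and 25.9, 25.3 and 28.6 CPM in controls (log2 fold change 0.69, adjusted p = 0.000139, edgeR). *GstD1*, the most abundant of the class at 1254 FPKM in knockouts and 1211 FPKM in controls, had 1070.3, 1058 and 1043 CPM in knockouts and 1023, 1004 and 1036 CPM in controls (adjusted p = 0.6303, edgeR). The class as a whole took 0.116% to 0.118% of knockout counts and 0.107% to 0.113% of control counts. The 5 genes are similar and neighbors, and the sources used here do not say how reads that fit more than 1 of them were assigned. Of the epsilon class, *GstE3* rose (0.50, adjusted p = 0.000289, edgeR) and *GstE8* fell (−0.64, adjusted p = 0.00211, edgeR) out of 14 tested.

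Cytochrome P450 genes, which encode oxidases of foreign compounds and steroids, were higher for 7 of 75 tested (median 0.18), where 2.67% of all genes tested were. *Cyp309a1* had 36.4, 34.8 and 37.6 CPM in knockouts and 18.4, 18.3 and 17.5 CPM in controls (log2 fold change 1.004 with an SE of 0.08, adjusted p = 6.95e-06, edgeR), and *Cyp9b2* had 99.4, 83.2 and 88.1 CPM in knockouts and 62.9, 58.4 and 71.7 CPM in controls (log2 fold change 0.49, adjusted p = 0.00386, edgeR). The other called members were *Cyp313a1*, *Cyp12c1*, *Cyp6g1*, *Cyp9f2* and *Cyp12a4*, at 0.29 to 0.82, and their calls were lost without at least 1 library. The number called ranged between 3 and 10 when a library was left out. Of 19 tested antioxidant genes 1 rose, *Prx2540-2*, a peroxiredoxin with near-identical copies, with 37.9, 36.9 and 41.2 CPM in knockouts and 22.98, 23.8 and 24.96 CPM in controls (log2 fold change 0.70 with an SE of 0.08, adjusted p = 0.000189, edgeR). Heat shock proteins, 14 tested, had no higher call 7 d after the heat shock (1 at an unadjusted p under 0.05, 1 by DESeq2), and *Hsp26* was lower (−0.20, adjusted p = 0.0164, and up to 0.106 without control 1, control 2, knockout 1 or knockout 2, edgeR).

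Peptidoglycan recognition proteins (PGRPs) bind bacterial cell walls, and some of them cut peptidoglycan and damp immune signaling in the gut. Of 11 tested 5 rose, with a median of 0.49. *PGRP-SC2*, a secreted amidase, had 246, 242 and 255.1 CPM in knockouts and 175, 170.4 and 186 CPM in controls (log2 fold change 0.49 with an SE of 0.05, adjusted p = 3.85e-05, edgeR). *PGRP-SC1a* had 9.68, 10.1 and 9.13 CPM in knockouts and 3.84, 3.601 and 5.06 CPM in controls (log2 fold change 1.21 with an SE of 0.16, adjusted p = 0.000805, edgeR), and *PGRP-SC1b* had 11.9, 14.7 and 11.9 CPM in knockouts and 5.205, 6.03 and 2.71 CPM in controls (log2 fold change 1.46 with an SE of 0.23, adjusted p = 0.00236, edgeR). *PGRP-SC1a* and *PGRP-SC1b* are near-identical copies, and how their reads were divided is uncertain. *PGRP-SB1* stood at 64.6, 56.7 and 126 CPM in knockouts and 49.05, 36.3 and 43.05 CPM in controls, a call that rested on all 3 controls (adjusted p = 0.0477, and up to 0.184 without 1 of them, edgeR). *PGRP-LC*, the membrane receptor of the Imd pathway, rose by 0.44 (adjusted p = 0.0304, edgeR) and lost its call without any of 5 libraries, control 1 excepted (up to 0.109). 

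Antimicrobial peptide genes, the outputs of the Imd and Toll pathways, rose for 4 of 17 tested. *Def* had 21.3, 26.9 and 16.4 CPM in knockouts and 8.67, 6.09 and 6.28 CPM in controls (log2 fold change 1.62 with an SE of 0.19, adjusted p = 0.000229, edgeR). *AttD* had 3.98, 4.52 and 7.37 CPM in knockouts and 0.797, 1.77 and 1.28 CPM in controls (log2 fold change 2.05 with an SE of 0.32, adjusted p = 0.002598, edgeR), and *Drs* had 262, 283 and 217 CPM in knockouts and 189, 182 and 168 CPM in controls (log2 fold change 0.50 with an SE of 0.08, adjusted p = 0.00354, edgeR). These 3 calls held without any single library. *CecA1*, which shares sequence with *CecA2*, had 2.41, 1.47 and 6.59 CPM in knockouts and 0.656, 0.203 and 1.01 CPM in controls (log2 fold change 2.48, adjusted p = 0.0364, edgeR) and lost its call without knockout 3, control 1 or control 2 (adjusted p up to 0.131), with a log2 fold change of 1.63 for *CecA1* without knockout 3. Knockout 3 was far above every other library in several peptides that did not pass. *Dro* had 16.4, 20.3 and 340.02 CPM in knockouts and 19.9, 9.84 and 11.9 CPM in controls (adjusted p = 0.104, edgeR), *Mtk* had 2.72, 2.03 and 25.5 CPM in knockouts and 7.13, 0.659 and 1.22 CPM in controls, and *Dpt*, with 56.2 ± 86.4 CPM in knockouts and 16.1 ± 23.8 CPM in controls (mean ± SD, n = 3 each), was also highest in knockout 3. The whole list took 0.0400%, 0.0428% and 0.102% of the counts in knockouts 1, 2 and 3, and 0.0373%, 0.0265% and 0.0245% in controls. Its median was 1.62 with all libraries and 0.42 without knockout 3, which left 4 called members. None of 16 tested bomanins and other immune-induced peptides passed (median 0.11, with 0 at an unadjusted p under 0.05 and 0 by DESeq2).

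**Figure D4:**
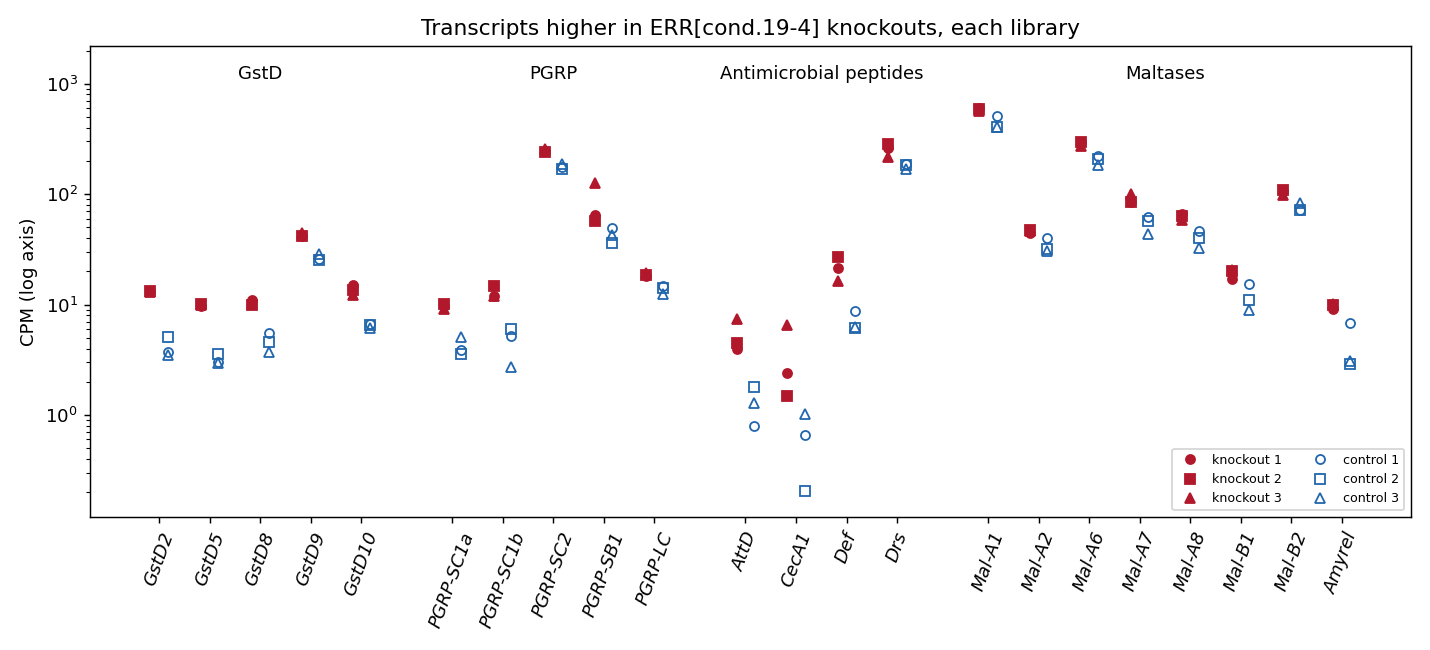
CPM on a log axis of the called members of 4 gene groups in each library of *ERR[cond.19-4]* females, with filled red symbols for knockouts and open blue symbols for controls (circle, square and triangle for replicates 1, 2 and 3). The *GstD* genes are near equal across knockouts, while *CecA1*, *AttD* and *PGRP-SB1* are highest in knockout 3.

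Calls among digestive enzyme genes differed in direction between classes, with exceptions. Of 14 maltase and amylase genes, all tested, 8 rose and 1 fell, with a median of 0.43, and 5 to 8 were called as higher with a library left out. *Mal-A1* had 604, 593 and 571 CPM in knockouts and 506, 406 and 404 CPM in controls (log2 fold change 0.43 with an SE of 0.08, adjusted p = 0.00581, edgeR). *Mal-A6* had 295, 294 and 273 CPM in knockouts and 222, 207 and 183 CPM in controls (log2 fold change 0.50 with an SE of 0.06, adjusted p = 0.000543, edgeR), and *Mal-A7* had 85.6, 84.96 and 101 CPM in knockouts and 61.9, 56.7 and 43.4 CPM in controls (log2 fold change 0.74 with an SE of 0.11, adjusted p = 0.00156, edgeR). Calls that held without any single library also included *Mal-A8* (0.67, adjusted p = 0.00207, edgeR) and *Mal-B2* (0.47, adjusted p = 0.00123, edgeR). The most abundant member, the amylase *Amy-p*, was the exception, with 1373, 1390.3 and 1529.9 CPM in knockouts and 1891, 1554 and 1807 CPM in controls, and its call was lost without control 1, control 3, knockout 1 or knockout 2 (log2 fold change −0.29, adjusted p = 0.0407, and up to 0.186, edgeR). The whole list took 0.353% of the counts in knockouts and 0.351% in controls.

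Jonah proteases, serine proteases of the midgut, fell for 5 of 16 tested, with a median of −0.18, and between 2 and 6 were called as lower when a library was left out. DESeq2 called 3 of them as lower. *Jon99Ciii* had 1729, 1828 and 1875 CPM in knockouts and 2505, 2348 and 2922 CPM in controls (log2 fold change −0.52 with an SE of 0.07, adjusted p = 0.00104, edgeR). *Jon99Cii* had 1574, 1575 and 1684 CPM in knockouts and 2049.5, 2245 and 3140.4 CPM in controls, with control 3 the highest, and its call was lost without knockout 2 (log2 fold change −0.62, adjusted p = 0.0105, and 0.0661 without it, edgeR). Together these genes took 0.999% to 1.04% of knockout counts and 1.18% to 1.502% of control counts. Of 12 listed trypsins 3 rose, *kappaTry* (0.47, adjusted p = 0.00469, edgeR), *etaTry* and *lambdaTry*, and the last pair lost their calls without at least 1 library. The trypsin list as a whole had a median of −0.01, with 6 negative and 6 positive values. Midgut marker genes as a whole were split, with 4 lower and 6 higher of 16 tested and summed levels of 1.15% to 1.23% of knockout counts and 1.29% to 1.53% of control counts. This list shares genes with those above. Its 4 lower genes were *Jon99Ciii*, *Jon99Cii*, *Jon65Aiv* and *Amy-p*, and *Mal-A1* and *Mal-A6* were among its 6 higher genes. The higher ones included *Npc2f* (0.75, adjusted p = 0.000221, edgeR), a gene for a sterol-binding protein, and *Mur29B*, a mucin-related gene (0.95, adjusted p = 0.00239, edgeR). *Mur18B*, another mucin-related gene and the higher gene with the lowest p, had 981, 979.7 and 953 CPM in knockouts and 537, 541 and 578 CPM in controls (log2 fold change 0.82 with an SE of 0.05, adjusted p = 3.18e-07, edgeR).

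Of genes in no list, *mesh*, *Tsp2A* and *Ssk*, which encode proteins of the smooth septate junctions of the gut epithelium, were picked after their values were seen, so they are given gene by gene and say nothing of such genes as a group. *mesh* had 51.5, 49.4 and 50.5 CPM in knockouts and 28.8, 32.3 and 31.9 CPM in controls (log2 fold change 0.70 with an SE of 0.07, adjusted p = 4.95e-05, edgeR), and *Tsp2A* had 43.6, 44.004 and 45.7 CPM in knockouts and 26.4, 33.6 and 30.2 CPM in controls (log2 fold change 0.56 with an SE of 0.09, adjusted p = 0.00206, edgeR). *Ssk* had 49.2, 46.8 and 42.2 CPM in knockouts and 30.6, 34.4 and 37.04 CPM in controls, and its call was lost without knockout 1 or knockout 2 (log2 fold change 0.44, adjusted p = 0.0109, and up to 0.0683, edgeR).

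Amino acid and one carbon metabolism had 6 higher and no lower genes among 31 tested (median 0.11, with 0 lower at an unadjusted p under 0.05 and 0 lower by DESeq2). *pug*, which encodes a folate enzyme of one carbon metabolism, had 202, 195 and 190.3 CPM in knockouts and 97.6, 113 and 99.2 CPM in controls (log2 fold change 0.92 with an SE of 0.06, adjusted p = 8.86e-07, edgeR). *CG3011*, serine hydroxymethyltransferase, had 410.1, 416 and 394 CPM in knockouts and 325, 324 and 345 CPM in controls (log2 fold change 0.29 with an SE of 0.04, adjusted p = 0.00198, edgeR). *CG3999*, a glycine cleavage enzyme, had 23.2, 21.8 and 22.7 CPM in knockouts and 16.1, 11.8 and 14.4 CPM in controls (log2 fold change 0.67 with an SE of 0.11, adjusted p = 0.00439, edgeR). In each of them every knockout lay above every control, as in *CG11796* (0.48, adjusted p = 0.000663, edgeR), an enzyme of tyrosine breakdown, and *Oat* (0.38, adjusted p = 0.00444, edgeR), ornithine aminotransferase. Such separation held for all but 2 of the 259 higher genes called. *Gnmt*, glycine N-methyltransferase, rose by 0.89 (adjusted p = 0.00963, and 0.0612 without knockout 2, edgeR). *CG9510*, argininosuccinate lyase, is outside the list and was lower, with 17.3, 17.4 and 12.2 CPM in knockouts and 27.3, 25.3 and 29.1 CPM in controls (log2 fold change −0.80 with an SE of 0.13, adjusted p = 0.00276, edgeR).

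Of 9 tested genes for acyl-CoA binding and hydrolysis, 4 rose (median 0.40, and 2 to 6 with a library left out). *CG8628* (*Acbp3*) and *CG16985*, which the study names, rose by 0.40 and 0.46 (adjusted p = 0.0228 and 0.0171, edgeR). *CG8628* lost its call without control 1, control 2, knockout 1 or knockout 2 (adjusted p up to 0.103, edgeR). *CG16985* lost its call without control 3 or knockout 2 (up to 0.0874). *CG15829*, an acyl-CoA binding protein, had 35.5, 30.996 and 31.9 CPM in knockouts and 13.2, 18.9 and 14.05 CPM in controls (log2 fold change 1.09 with an SE of 0.12, adjusted p = 0.000218, edgeR), and *CG16986* had 64.1, 57.5 and 49.6 CPM in knockouts and 36.4, 36.7 and 29.7 CPM in controls (log2 fold change 0.73 with an SE of 0.10, adjusted p = 0.000965, edgeR). In nucleotide synthesis and breakdown 3 of 18 rose, where 2.67% of all genes tested did. *Uro*, urate oxidase, had 49.3, 51.4 and 47.3 CPM in knockouts and 31.4, 25.3 and 37.4 CPM in controls (log2 fold change 0.65 with an SE of 0.11, adjusted p = 0.00444, edgeR), and *CG11089* had 141, 138 and 127 CPM in knockouts and 114, 107 and 112 CPM in controls (log2 fold change 0.29 with an SE of 0.05, adjusted p = 0.005296, edgeR). In insulin and adipokinetic hormone signaling, *CG8317*, the gene of limostatin, a hormone that lowers insulin release, had 23.5, 21.6 and 21.6 CPM in knockouts and 10.7, 15.97 and 8.25 CPM in controls (log2 fold change 0.93 with an SE of 0.18, adjusted p = 0.01098, edgeR), and *sug*, a transcription factor of sugar sensing, changed by −0.69 (adjusted p = 0.0219, and up to 0.0826 without control 2, control 3, knockout 1 or knockout 3, edgeR), out of 23 tested.

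Muscle marker genes rose for 5 of 24 tested (median 0.17), where 2.67% of all genes tested rose. The lowest p among them was that of *Mhc*, myosin heavy chain, with 142, 145 and 131 CPM in knockouts and 118, 101 and 108 CPM in controls (log2 fold change 0.36 with an SE of 0.06, adjusted p = 0.00462, edgeR). *TpnC4*, a troponin C gene, had a larger change, with 29.7, 22.2 and 25.01 CPM in knockouts and 18.9, 15.1 and 12.6 CPM in controls (log2 fold change 0.72 with an SE of 0.15, adjusted p = 0.0147, edgeR), and its call was lost without control 2 or knockout 1 (adjusted p up to 0.0746, edgeR). The number called ranged between 1 and 8 with a library left out, and the list took 0.222% to 0.234% of knockout counts and 0.198% to 0.228% of control counts. In the fat body list, for which *FASN1* was not found by name, 2 of 6 rose. *Lsp1alpha*, a larval serum storage protein, had 38.1, 28.4 and 36.3 CPM in knockouts and 12.8, 11.4 and 17.2 CPM in controls (log2 fold change 1.31 with an SE of 0.15, adjusted p = 0.000202, edgeR), and *Rfabg* had 1042, 999 and 980.5 CPM in knockouts and 823, 833 and 914 CPM in controls, a call lost without control 1, control 2, knockout 1 or knockout 2 (log2 fold change 0.23, adjusted p = 0.0235, and up to 0.132, edgeR). No yolk protein, vitelline membrane or germline marker passed, out of 3, 7 and 20 tested (0, 1 and 3 at an unadjusted p under 0.05, 0 by DESeq2). *Cp7Fc*, 1 of 10 chorion genes, fell, with 196, 172 and 179.7 CPM in knockouts and 247, 232 and 265 CPM in controls (log2 fold change −0.44 with an SE of 0.06, adjusted p = 0.000800, edgeR). Of these 10 chorion genes 9 had negative values (median −0.19), 3 were lower at an unadjusted p under 0.05 and DESeq2 called 3 as lower. With a library left out 1 to 4 were called as lower. None of 18 neuron, 15 photoreceptor or 10 haemocyte markers passed (0, 6 and 0 at an unadjusted p under 0.05, 0 by DESeq2).

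Of 85 tested cytoplasmic ribosomal protein genes 84 had positive values, with a median of 0.09. In edgeR the near-identical copies *RpS14a* and *RpS14b* passed (0.20 and 0.17, adjusted p = 0.0497 and 0.04598, edgeR), and each lost its call without any of 5 libraries. At an unadjusted p under 0.05 in edgeR 23 were higher, and DESeq2 called 5 as higher. The number called as higher ranged between 0 and 10 with a library left out. The list took 16.97% to 17.6% of knockout counts and 16.1% to 16.7% of control counts. None of 37 tested DNA replication genes passed, with 32 negative values, a median of −0.05, 4 at an unadjusted p under 0.05 and 0 by DESeq2. *Orc2* had 44.04, 51.9 and 48.4 CPM in knockouts and 58.2, 54.97 and 47.3 CPM in controls, and *Mcm3* had 111, 116 and 134 CPM in knockouts and 129, 127 and 124 CPM in controls, with overlapping groups. None of the 42 ribosome biogenesis, 46 translation factor, 34 proteasome or 74 mitochondrial ribosomal protein genes passed (4, 6, 4 and 0 at an unadjusted p under 0.05, and 1 translation factor by DESeq2). *CycB*, a mitotic cyclin and one of the most abundant lower genes, had 1700.2, 1757 and 1763 CPM in knockouts and 2011, 2058 and 2010.05 CPM in controls (log2 fold change −0.22, adjusted p = 0.0133, edgeR), a call lost without control 2, knockout 1 or knockout 2 (up to 0.0939).

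Other abundant or strongly raised genes belonged to no list. *CG14292* had 359, 357 and 393 CPM in knockouts and 207, 179 and 226 CPM in controls (log2 fold change 0.86 with an SE of 0.07, adjusted p = 1.77e-05, edgeR). *Arc1*, a capsid-like gene of neurons, had 664, 646 and 619.6 CPM in knockouts and 419.6, 390.2 and 483 CPM in controls (log2 fold change 0.58 with an SE of 0.07, adjusted p = 0.000246, edgeR). *CG14499* had 66.95, 61.8 and 94.8 CPM in knockouts and 25.2, 26.3 and 18.3 CPM in controls (log2 fold change 1.68 with an SE of 0.16, adjusted p = 4.11e-05, edgeR), and *CG32368*, a long non-coding RNA by its current name, had 53.1, 44.4 and 69.000 CPM in knockouts and 15.2, 26.4 and 13.6 CPM in controls (log2 fold change 1.59 with an SE of 0.21, adjusted p = 0.000730, edgeR). All 4 calls held without any single library. Rare genes had larger ratios and wider errors. *CG6271*, a gene with a lipase domain, had 29, 35 and 14 counts in knockouts and 5, 2 and 3 counts in controls, a ratio of 8.04 (95% interval 4.15 to 17.4, counting error only; adjusted p = 0.00666, edgeR). *CG8100* had 28, 26 and 34 counts in knockouts and 2, 4 and 6 counts in controls, a ratio of 7.56 (95% interval 4.12 to 15.2, counting error only; adjusted p = 0.00294, edgeR).

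Many higher genes lay next to one another. Of the 259 higher genes, 97 (37.5%) had another higher gene within 10000 bp, against 9.06% of all genes tested, whereas of the 101 lower genes 6 (5.94%) had a lower neighbor, against 4.98% of all. Linking called genes less than 10000 bp apart gave 16 runs of at least 3 genes with 54 genes in all, and in 13 runs every gene was higher. One held *GstD10*, *GstD9*, *GstD2*, *GstD5* and *GstD8* on chromosome 3R (12364776 to 12380815). Another held the maltases *Mal-A1*, *Mal-A2*, *Mal-A6*, *Mal-A7* and *Mal-A8* on 2R (8449664 to 8473961), and the next held *PGRP-SC1a*, *PGRP-SC1b* and *PGRP-SC2* on 2R (8709733 to 8717695). Further runs joined the chitinase-like growth factor genes *Idgf1*, *Idgf2* and *Idgf3* on 2L and the 3 trypsins on 2R. Neighbors in these runs are often paralogs, and reads they share were not followed.

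The called genes were also looked up in *ERR[cond.2]* females. Of the 101 lower genes 84 were also lower in sign in *ERR[cond.2]* knockouts, and 17 had the opposite sign. Over all 101 the median log2 fold change was −0.62 in *ERR[cond.19-4]* females, against −0.50 in *ERR[cond.2]* females. Of the 101, 30 were called in both stocks, which is 29.7% of the 101 and 66.7% of the 45 lower genes of *ERR[cond.2]* (0.466% of 9660 tested). The 259 higher genes had a median of 0.54 in *ERR[cond.19-4]* females. Of these, 257 were tested in *ERR[cond.2]* females, 117 with a positive and 140 with a negative sign and a median of −0.03, and 7 were called as higher in both (2.70% of the 259 and 43.8% of 16, where the background is 0.166%). With DESeq2, 49 genes were lower and 27 higher in both stocks. The study, which used DESeq2, called more genes in *ERR[cond.2]* than in *ERR[cond.19-4]* females, the reverse of the edgeR order here. The shares called in both stocks thus depend on the method. The 7 higher in both by edgeR were *mthl7*, *CG14292*, *CG4363*, *CG13309*, *CG9568*, *CG34166* and *CG8628*. As given above, *CG8628* lost its call in *ERR[cond.19-4]* females without some single libraries. Genes were chosen by their change in *ERR[cond.19-4]* females, so their medians there are a description, and the controls of the 2 stocks are separate libraries.

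Of 10029 genes tested in all 12 libraries 6 (0.0598%) passed the test of the difference itself, the change in *ERR[cond.19-4]* minus that in *ERR[cond.2]* females. Among them were 3 glycolytic genes that fell less in *ERR[cond.19-4]* than in *ERR[cond.2]* females. *Gapdh2* changed by −2.39 in *ERR[cond.19-4]* females, against −3.86 in *ERR[cond.2]* females (difference 1.46, SE 0.11, adjusted p = 0.000178, edgeR). *Pfk* changed by −2.19 in *ERR[cond.19-4]* females, against −3.21 in *ERR[cond.2]* females (difference 1.01, adjusted p = 0.04097, edgeR), and *Tpi* by −2.10 in *ERR[cond.19-4]* females, against −2.89 in *ERR[cond.2]* females (difference 0.78, adjusted p = 0.0174, edgeR). *Lsp1alpha* rose by 1.31 in *ERR[cond.19-4]* females, against −1.62 in *ERR[cond.2]* females, where it did not pass its own test (difference 2.92, adjusted p = 0.0174, edgeR). *GstD2* rose by 1.69 in *ERR[cond.19-4]* females, against 0.09 in *ERR[cond.2]* females (difference 1.59, adjusted p = 0.0433, edgeR). *Cyp4e3* differed as well, at 0.65 in *ERR[cond.19-4]* females, against −2.48 in *ERR[cond.2]* females (difference 3.11, adjusted p = 0.04097, edgeR). It passed its own test in *ERR[cond.2]* females (adjusted p = 0.0380, edgeR) but not in *ERR[cond.19-4]* females (adjusted p = 0.1596, edgeR). The number of genes past this test lay between 1 and 9 with 1 *ERR[cond.19-4]* library left out, and it was 484 with DESeq2, 40 when every gene with at least 1 count was kept and 2 with the replicate block.

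**Figure D5:**
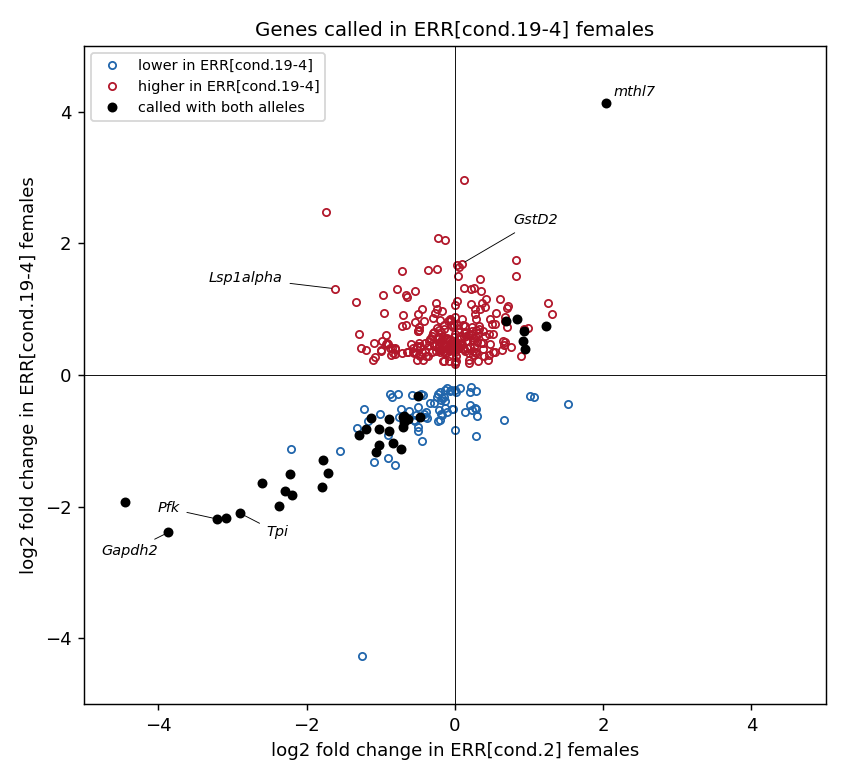
Log2 fold change in *ERR[cond.19-4]* females (vertical axis) against that in *ERR[cond.2]* females (horizontal axis) for the genes called in *ERR[cond.19-4]* females and tested in both, in blue where lower, in red where higher and in black where called in both. Genes lower in *ERR[cond.19-4]* females spread toward negative values of *ERR[cond.2]*, while those higher scatter around 0.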

How the data were processed

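RNA of whole females was sequenced in 3 independent experiments, as paired reads of 150 bases, which the authors mapped by TopHat and assigned to genes by HTSeq. The deposited table holds raw read counts for each gene, and the authors had not normalized them. The sources used here do not give tool versions, genome build, use of strand or the handling of reads with several matches. Of 17558 gene identifiers 17252 were found in Ensembl BDGP6, and 16959 had the same coordinates (98.3%). The gene length that the authors deposited, in bases, served to compute FPKM.

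The 6 *ERR[cond.19-4]* libraries were fitted alone with edgeR 4.0.16 in R 4.3.3 (trimmed mean of M values, filterByExpr, quasi-likelihood test, Benjamini-Hochberg adjustment over all 9717 genes, threshold 0.05). An interaction term, fitted with all 12 libraries, tested the difference between the stocks. Whether a difference exceeds replicate spread was judged by these tests, and with 3 libraries against 3 an exact permutation test cannot go below 0.1. Gene lists (61, with 676 entries, 7 not found, *FASN1* among them) were described by counts and medians. Members and lists were chosen with earlier results of these data known. Named genes were *ERR*, its neighbors and genes the study names, up to 15 called genes per direction by fold change (at least 1 CPM in a group, no overlap between groups), the 10 most abundant per direction, up to 6 called members per list and genes that differed between the stocks. Other called members of a described list, *PhKgamma*, *CG3699*, *Corp*, *CG9510*, the genes called in both stocks, *Idgf1* to *Idgf3* and the junction genes were named after their values were seen, as were the uncalled members given as contrasts. The same edgeR steps, coded separately, were run on counts simulated from the means and spread of these 6 libraries, and the outcome is not reported here.

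Deviations of knockouts and controls with the same replicate number correlated at 0.0247, 0.0451 and −0.00448, all under 0.1, so samples were not treated as pairs. Alternatives were DESeq2 1.42.0, its size factors, total counts, 2 other count filters, all 12 libraries in 1 fit, a threshold of 0.01, the replicate block, a minimum log2 fold change of 1 and each library left out. Figures were drawn with matplotlib 3.10.9.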

Additional observations from a re-analysis of the deposited data

Results flagged for a closer look

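The 6 genes below differed in their change between the stocks, by edgeR's test of the change in *ERR[cond.19-4]* minus that in *ERR[cond.2]* females. *Gapdh2* differed by 1.46, *Pfk* by 1.01 and *Tpi* by 0.78 on the log2 scale, and all 3 were lower in knockouts of both stocks. *Lsp1alpha* differed by 2.92 and *Cyp4e3* by 3.11, with opposite signs in the stocks. *GstD2* differed by 1.59. Within *ERR[cond.19-4]* females *Cyp4e3* had 5.18, 5.28 and 3.48 CPM in knockouts and 3.28, 2.69 and 2.93 CPM in controls, and did not pass its own test (adjusted p = 0.1596, edgeR).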

How the results depend on the processing

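With a library left out, the lower genes numbered 77 to 117, the higher genes 147 to 305 and both together 224 to 420, against 101, 259 and 360. All 12 libraries in 1 fit gave 53 lower, 41 higher and 94 in all, an adjusted p under 0.01 gave 67, 130 and 197, and a log2 fold change of at least 1 gave 24, 43 and 67. Keeping every gene with at least 1 count gave 150 lower and 368 higher genes, and DESeq2 gave 112 and 290. With the replicate block there were 113 lower and 274 higher genes, and no sample was paired by its number. The 6 genes that differed between the stocks became 40 with every gene with at least 1 count, 2 with the replicate block and 484 with DESeq2, and 1 to 9 with a library left out; at an unadjusted p under 0.05 there were 2222. The genes lower in both stocks numbered 30 (49 with DESeq2, 30 to 31 with a library left out) and those higher in both 7 (27 with DESeq2, 5 to 9). *DNApol-delta*, at 0.03, lay between −0.0230 (without control 3) and 0.0971 with a library left out, and at −0.00147 without knockout 2. No other direction reversed among the named genes, list counts and list medians recomputed. The cause of these shifts was not tested, apart from the number of genes called, which the stricter thresholds lower by construction. Genes under about 1 CPM rest on few counts, which limits small changes there. The planned shares of promoters with an ERR motif were not run, since no promoter sequence was used here.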

Other observations

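Serine proteases of the trypsin family, annotated in the authors' table, had 7 lower and 11 higher genes among 141 tested. The lower ones included the 5 called Jonah proteases, and the higher ones the 3 called trypsins, all counted above. The higher ones included *CG9672*, with 124, 114 and 117 CPM in knockouts and 69.8, 67.8 and 76.04 CPM in controls (log2 fold change 0.73 with an SE of 0.06, adjusted p = 5.80e-06, edgeR). Tetraspanins, membrane proteins with 4 spans, had 5 higher genes among 31 tested, such as *Tsp29Fb* with 129, 137 and 136 CPM in knockouts and 101, 105 and 106 CPM in controls (log2 fold change 0.37 with an SE of 0.05, adjusted p = 0.000385, edgeR). Genes with a lipase domain were split, with 2 lower and 2 higher of 21 tested. *CG17192*, which lies in the same run as *CG6271*, was lower, with 57.5, 60.01 and 55.4 CPM in knockouts and 90.8, 99.2 and 139 CPM in controls (log2 fold change −0.93 with an SE of 0.12, adjusted p = 0.000714, edgeR). C-type lectins had 3 higher genes of 19 tested, and *lectin-37Da* had 80.7, 75.9 and 82.3 CPM in knockouts and 29.7, 45.6 and 32.3 CPM in controls (log2 fold change 1.15 with an SE of 0.12, adjusted p = 0.000115, edgeR). By chromosome, the X held 23 lower and 26 higher genes of 1642 tested (1.40% and 1.58%), and 2R held 21 lower and 72 higher genes of 1982 tested (1.06% and 3.63%). Over all genes tested 1.04% were lower and 2.67% higher, so the lower shares of both chromosomes lie near that background. These families and chromosomes were chosen after their values were seen, and nothing is read from their counts.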
